A study of Mus musculus with 8 samples.

Results

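The 10 transcripts described here encode proteins that hepatocytes release into the blood: albumin (Alb), transthyretin (Ttr), transferrin (Trf), an alpha-1-antitrypsin (Serpina1a) and the apolipoproteins Apoa1, Apoa2, Apob, Apoc3, Apoe and Apoh. They were chosen by name, all 10 were among the 46603 genes of the count table, and all 10 were among the 13605 genes that passed the filter on low counts. The libraries came from 4 mice that were R26rtTA het/H2B-EGFP het, with a mixed C57BL/6 and CBA background, and that received doxycycline from birth to postnatal day 5. All of them, in both groups, thus carried the transactivator at the ubiquitously active Rosa26 locus and the inducible histone fusion, whose label is diluted when a cell divides. At 8 weeks the livers were perfused, hepatocytes were spun out at low speed, CD45+ cells were depleted on beads, and EpCAM+CD45- cells that were EGFP+ (LLRCs, for liver label-retaining cells) or EGFP- (non-LRC) were sorted from each animal. The transgene is also active in blood cells without doxycycline, which limits EGFP as a mark of past labelling in any blood cell that passed the gate. Mice are named JV602, JV621, JV624 and JV6314, as in the sample titles, and each gave 1 LLRC and 1 non-LRC library. Where 4 values are given for a group, they follow that order of mice. The comparison asked whether transcripts of hepatocyte secretion differed between biliary cells that kept the label and those that lost it.

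Hepatocytes make most of the proteins of plasma. Albumin carries fatty acids and bilirubin and holds water in the vessels, transthyretin carries thyroxine and retinol-binding protein, transferrin carries iron, and alpha-1-antitrypsin restrains neutrophil elastase. Apolipoproteins wrap lipid into particles: Apob is the scaffold of very low density lipoprotein and of chylomicrons, Apoa1 and Apoa2 are the main proteins of high density lipoprotein, Apoc3 slows the clearance of triglyceride-rich particles, Apoe is the ligand that receptors take up, and Apoh binds phospholipid surfaces. Cholangiocytes, the cells that line bile ducts, share a fetal precursor with hepatocytes and express HNF1 and forkhead factors, as hepatocytes do. Their own products are keratins, channels and bile-modifying transporters rather than plasma proteins, with clusterin (Clu), also an apolipoprotein, as an abundant exception.

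Of the members with a promoter entry in RefSeq, Apoa2, Apoa1 and Serpina1a had the largest log2 fold changes and Alb the smallest, so the sequence just before these 4 genes is shown. Each stretch has 150 bases, read 5' to 3' on the strand of the gene from RefSeq for GRCm38.p6, and ends before the gene's start in GENCODE M21 or its RefSeq start there, whichever lies further upstream. Apoa2 has a further RefSeq start upstream, which is not shown. Capitals mark the HNF1 core GTTAAT and the forkhead cores TGTTTAC and TGTTTGC on either strand. The stretches are chr5:90460720-90460869 (+) for Alb, chr9:46228430-46228579 (+) for Apoa1, chr1:171224904-171225053 (+) for Apoa2 and chr12:103863620-103863769 (-) for Serpina1a.
Alb: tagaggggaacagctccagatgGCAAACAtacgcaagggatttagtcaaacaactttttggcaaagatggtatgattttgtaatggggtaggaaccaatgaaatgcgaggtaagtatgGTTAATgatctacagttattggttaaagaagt
Apoa1: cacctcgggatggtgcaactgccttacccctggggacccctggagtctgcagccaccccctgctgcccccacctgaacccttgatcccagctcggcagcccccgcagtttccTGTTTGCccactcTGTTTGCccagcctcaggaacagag
Apoa2: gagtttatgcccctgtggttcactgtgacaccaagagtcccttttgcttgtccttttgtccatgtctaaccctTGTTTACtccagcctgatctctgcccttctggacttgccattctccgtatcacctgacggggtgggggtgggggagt
Serpina1a: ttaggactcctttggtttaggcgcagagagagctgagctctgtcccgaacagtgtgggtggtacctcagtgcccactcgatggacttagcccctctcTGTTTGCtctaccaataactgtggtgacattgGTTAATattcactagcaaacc

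The letters were searched in the 250 bases before each RefSeq start, on both strands, for the 7 members with a RefSeq promoter entry (Alb, Apoa1, Apoa2, Apob, Apoe, Apoh and Serpina1a). A forkhead core, TGTTTAC or TGTTTGC, stood before 6 of the 7 genes, with Apoe as the exception, whereas 7.29% of the 32851 windows of that length held one. Here a gene was counted if any of its windows held the letters, while the percentages are over single windows. Genes with several starts, Apoa2 and Apoe, thus had more windows to match. GTTAAT stood before Alb, Serpina1a and, at 1 of its 3 starts, Apoe, with 6.43% of all windows holding it. In Alb the GTTAAT match began 32 bases before the RefSeq start and the TGTTTGC match 128 bases before it. Apoa1 held TGTTTGC at 88 and at 75 bases, Apoa2 held TGTTTAC at 77 bases, at 1 of its 2 RefSeq starts, and Serpina1a held TGTTTGC at 53 bases and GTTAAT at 21 bases. These cores were chosen for display after other letters had been searched too. The full HNF1 palindrome, the HNF4 letters CAAAGTCCA and CAAAGTTCA and the nuclear receptor direct repeat with a 1-base spacer stood before 0 of the 7 genes, and 0.00913%, 0.384%, 0.335% and 0.0335% of all windows held them in that order. The C/EBP letters TTGCNNAA, TATAAA and CCAAT stood before 3 of the 7 genes each, against 9.56%, 12.4% and 33.8% of all windows. These matches describe the sequence and say nothing about binding in the sorted cells.

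The LLRC libraries held 7860021 to 9851819 counts each and the non-LRC libraries 4670132 to 8056103. Counts were scaled to a common library size as CPM, with TMM factors between 0.816 and 1.23. The smallest count of any member in any library was 36, above the floor of 3 counts. The labelled cell type was checked first, and all 16 cholangiocyte markers on the list used here passed the filter. Their summed level was 116600 to 223600 CPM in LLRCs and 67820 to 165000 CPM in non-LRC libraries, most of it Spp1 (osteopontin).

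Serum protein and apolipoprotein transcripts were present in every biliary library, and none differed between LLRCs and non-LRC libraries past the threshold. In edgeR's quasi-likelihood test with Benjamini-Hochberg adjustment over 13605 genes, 0 of the 10 members had an adjusted p below 0.05, against 0% of all genes tested. At an unadjusted p below 0.05, 4 of the 10 were lower in LLRCs (Apoa1, Apoa2, Apoc3 and Serpina1a), against 3.56% of all genes, and 0 were higher, against 1.6%. DESeq2 called 1 member, Apoc3, lower in LLRCs at an adjusted p of 0.0357, against 1.26% of all genes. edgeR's exact test called 0 members, against 0.933% of all genes, and limma with voom weights called 0. In the quasi-likelihood fit the log2 fold change, LLRC over non-LRC, was below 0 for 8 of the 10, and their median was -0.91, beside -0.01 for all genes tested. For 0 of the 10 did the LLRC levels lie wholly apart from the non-LRC levels, against 1.91% of all genes for LLRCs below and 2.15% for LLRCs above. These are bulk samples, in which more cells that hold a transcript and more of the transcript per cell cannot be told apart.

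The differences sat in 2 of the 4 mice. The LLRC library was lower than the non-LRC library of the same mouse for 9 of the 10 members in JV624 and for 9 in JV6314, but for 6 in JV602 and 2 in JV621. Apoa1, Apoa2, Apoc3, Serpina1a and Trf, 5 of the 10, were lower in LLRCs by more than 1 on the log2 scale in both JV624 and JV6314, against 6.59% of all genes tested. The median member difference within a mouse, on log2 of CPM plus 0.5, was -2.02 in JV624 and -1.02 in JV6314, but -0.07 in JV602 and 0.52 in JV621. The median of all genes tested was -0.03 in JV624, 0.09 in JV6314, 0.01 in JV602 and 0.31 in JV621, so that in JV621 the differences of all genes lay above 0 at the median as well. The non-LRC library of JV624 held the highest level of all 8 libraries for 7 of the 10. Members lower in LLRCs in all 4 mice were Apoa1 and Apoc3, 2 of 10 against 5.53% of all genes, and Apob, 1 of 10 against 7.74%, was higher in LLRCs in all 4. These directions rest on small steps in some mice: with upper-quartile scaling Apoa1 and Apoc3 were higher in the LLRCs of JV621, by 0.13 and 0.06 on the log2 scale, and with library size as the only scaling they were so too (0.25 and 0.17), while Apob was then lower in the LLRCs of JV624 (-0.28). The 5 members lower by more than 1 in JV624 and JV6314 were the same 5 under all 4 scalings.

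**Figure D1:**
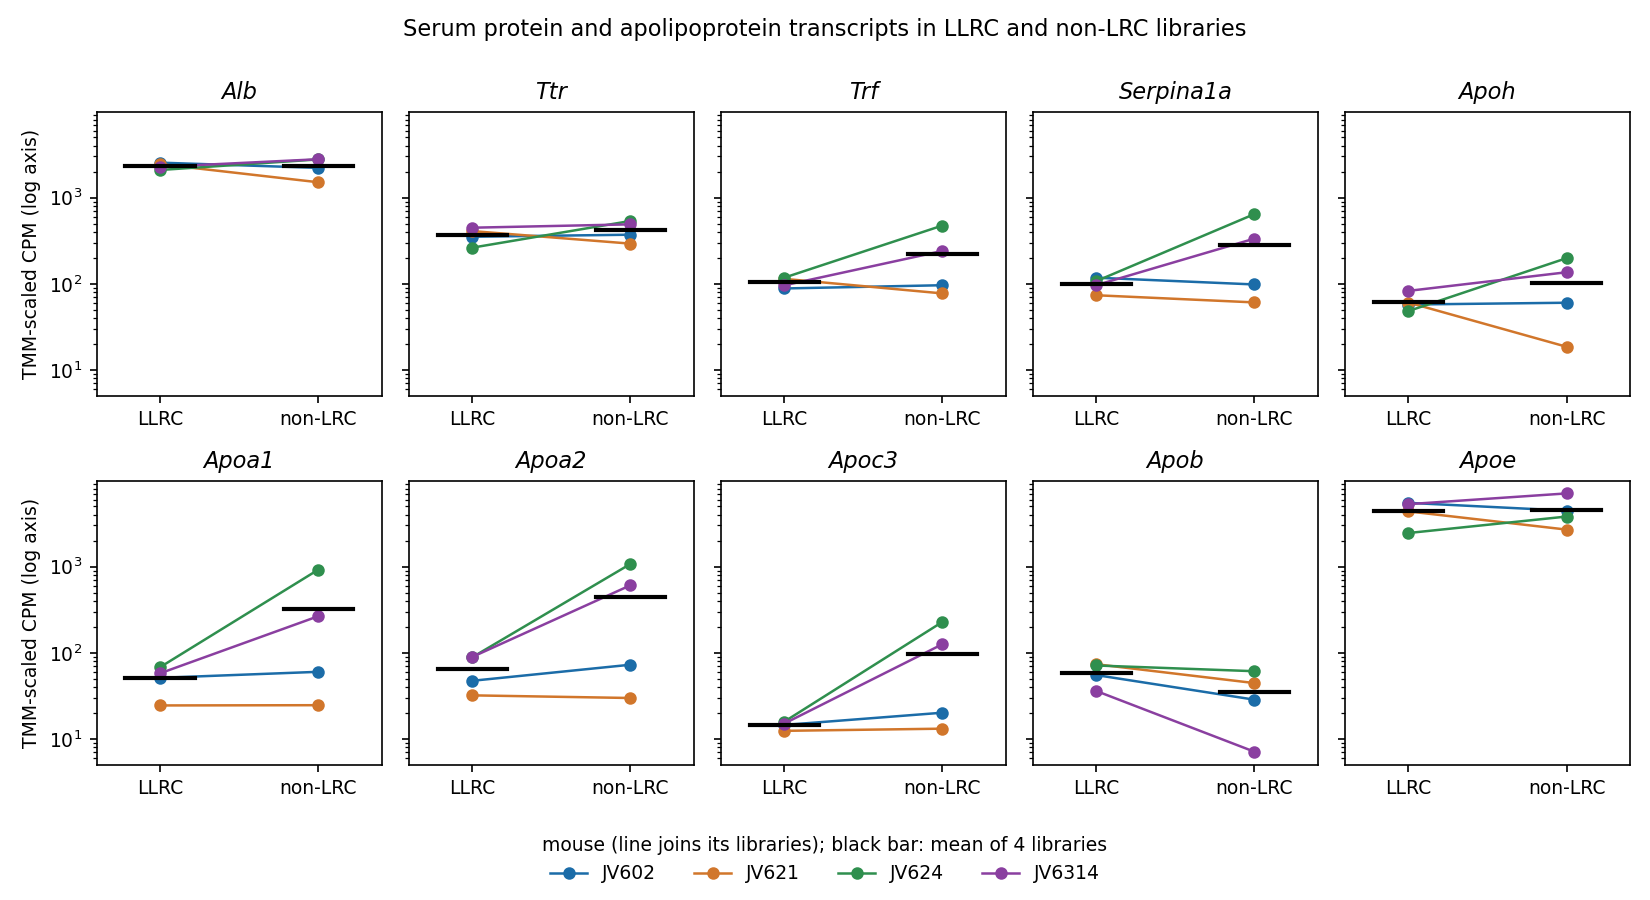
TMM-scaled CPM of the 10 transcripts (log axis) in the LLRC and non-LRC libraries, with a line joining the libraries of each mouse and a black bar at the mean of 4 libraries. The group means of Alb, Ttr and Apoe lie close together, though their single libraries vary, as for Apoe from 2452 to 7063 CPM. For Apoa1, Apoa2, Apoc3 and Serpina1a the non-LRC points of JV624 and JV6314 lie far above the other 6 points. Apob is lower on the right in every mouse on this scale.

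Alb (ENSMUSG00000029368, chromosome 5, 90460897 to 90476602 of GRCm38, plus strand) had nearly the same mean in both groups. Its level was 2542, 2441, 2091 and 2272 CPM in LLRCs and, in non-LRC libraries, 2212, 1506, 2773 and 2786 CPM. LLRCs were higher in JV602 and JV621 and lower in JV624 and JV6314, and the groups overlapped. The means were 2336 ± 198 CPM in LLRCs and, in non-LRC libraries, 2319 ± 604 CPM (SD, n = 4), a log2 fold change of 0.01 with a 95% interval from -0.60 to 0.62 (edgeR's quasi-likelihood test, adjusted p = 1). The counts behind these levels were 7214 to 26225 per library.

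Ttr (ENSMUSG00000061808, chromosome 18, 20665280 to 20674321, plus strand) had a like pattern. It stood at 351, 408.5, 262 and 447 CPM in the LLRC libraries and at 371, 292, 535 and 489 CPM in their non-LRC libraries. The ranges overlapped, with the lowest level in the LLRC library and the highest in the non-LRC library of the same animal, JV624. The means were 367 ± 80.3 and 422 ± 111 CPM (SD, n = 4), and the log2 fold change was -0.20 with a 95% interval from -0.85 to 0.45 (edgeR's quasi-likelihood test, adjusted p = 1).

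Apoa1, Apoa2 and Apoc3 had the largest differences of the 10. Apoa1 (ENSMUSG00000032083, chromosome 9, 46228580 to 46230466, plus strand) stood at 51.2, 24.5, 68.2 and 57.8 CPM in the LLRC libraries and at 60.1, 24.6, 921 and 266 CPM in the non-LRC libraries. The libraries of JV602 and of JV621 were nearly level, while the non-LRC libraries of JV624 and JV6314 were 13.5-fold and 4.59-fold above the LLRC libraries of these mice. The means were 50.4 ± 18.7 CPM in LLRCs and, in non-LRC libraries, 318 ± 416 CPM (SD, n = 4), and the log2 fold change was -2.66 with a 95% interval from -4.88 to -0.44 (edgeR's quasi-likelihood test, adjusted p = 0.814).

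Apoa2 (ENSMUSG00000005681, chromosome 1, 171225054 to 171226379, plus strand) stood at 47.3, 32.1, 88.7 and 89.5 CPM in LLRCs and, in non-LRC libraries, at 72.6, 29.9, 1072 and 606 CPM. Again the non-LRC libraries of JV624 and JV6314 stood apart, 12.1-fold and 6.77-fold above the LLRC libraries of their mice, and the other 6 libraries overlapped. The log2 fold change was -2.79 with a 95% interval from -5.04 to -0.54 (edgeR's quasi-likelihood test, adjusted p = 0.784). The LLRC mean was 64.4 ± 29.2 CPM and the non-LRC mean 445 ± 493 CPM (SD, n = 4).

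Apoc3 (ENSMUSG00000032081, chromosome 9, 46232933 to 46235636, minus strand) lies 2466 bases from Apoa1. It was even among LLRCs, at 14.5, 12.4, 15.9 and 15.1 CPM, and stood at 20.2, 13.2, 228 and 126 CPM in the non-LRC libraries. The non-LRC libraries of JV624 and JV6314 were 14.4-fold and 8.32-fold above the LLRC libraries of their mice, while in JV602 and JV621 the LLRC minus non-LRC difference was -0.46 and -0.08 on the log2 scale. The groups overlapped through the non-LRC library of JV621, which lay between the LLRC levels. The means were 14.5 ± 1.48 and 96.8 ± 102 CPM (SD, n = 4), and the log2 fold change was -2.74 with a 95% interval from -4.62 to -0.86 (edgeR's quasi-likelihood test, adjusted p = 0.556). Over 23 other settings of the analysis its adjusted p ran from 0.0357 to 1.

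Serpina1a, Trf and Apoh were also highest in the non-LRC library of JV624 and next in that of JV6314, with smaller steps. Serpina1a (ENSMUSG00000066366, chromosome 12, 103853589 to 103863562, minus strand) stood at 118, 73.6, 107.5 and 96.5 CPM in LLRCs and, in non-LRC libraries, at 98.2, 60.8, 644 and 334 CPM. LLRCs were slightly higher in JV602 and JV621 and 5.99-fold and 3.46-fold lower in JV624 and JV6314. Its log2 fold change was -1.53 with a 95% interval from -3.02 to -0.03 (edgeR's quasi-likelihood test, adjusted p = 0.957). Its counts are uncertain as a measure of this gene alone, because 67.4% of the 50-base windows of its longest transcript also occur in transcripts of Serpina1b to Serpina1e or Gm8893.

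Trf (ENSMUSG00000032554, chromosome 9, 103204001 to 103230444, minus strand) stood at 88.2, 114, 118 and 95.9 CPM in LLRCs and, in non-LRC libraries, at 96.2, 77.3, 474 and 240.3 CPM. The non-LRC levels of JV602 and JV621 fell among the LLRC levels or below them, and those of JV624 and JV6314 were 4.02-fold and 2.51-fold above the LLRC libraries of their mice. The log2 fold change was -1.09 with a 95% interval from -2.31 to 0.13 (edgeR's quasi-likelihood test, adjusted p = 1). Its exons share 63.5% of their bases with Gm20425 on the same strand, where union counting assigns no read, so its level is read from the remainder of the gene.

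Apoh (ENSMUSG00000000049, chromosome 11, 108343354 to 108414396, plus strand) stood at 57.4, 60.6, 48.2 and 82.7 CPM in LLRCs and, in non-LRC libraries, at 60.2, 18.6, 198 and 136 CPM. LLRCs were lower in JV624 and JV6314, level in JV602 and higher in JV621, where the difference was 1.68 on the log2 scale. The log2 fold change of -0.73 had a 95% interval from -2.10 to 0.64 (edgeR's quasi-likelihood test, adjusted p = 1). Exons of Prkca on the opposite strand overlap 1.88% of the exon bases of Apoh.

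Apob (ENSMUSG00000020609, chromosome 12, 7977648 to 8016835, plus strand) went the other way. It stood at 55.1, 73.6, 71.2 and 36.0 CPM in the LLRC libraries and at 28.6, 44.5, 61.1 and 7.10 CPM in the non-LRC libraries. The LLRC library was higher in all 4 mice, by 1.93-fold, 1.65-fold, 1.17-fold and 5.06-fold, though not in JV624 with library size as the only scaling, and the groups as wholes overlapped. The log2 fold change was 0.74 with a 95% interval from -0.55 to 2.03 (edgeR's quasi-likelihood test, adjusted p = 1), and 1.03 with the mouse as a block (adjusted p = 1). The non-LRC library of JV6314 held 36 counts of Apob, the fewest of any member in any library. Apob is by far the longest of the 10 transcripts, with 13934 exon bases. Over the 1173 genes with 10000 exon bases or more, the median LLRC minus non-LRC difference in the 4 mice was -0.14, 0.08, 0.44 and 0.43 on the log2 scale, and over the 1594 genes under 1000 bases it was 0.01, 0.35, -0.28 and -0.08. The part of transcript length in the Apob values was not tested.

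Apoe (ENSMUSG00000002985, chromosome 7, 19696109 to 19699188, minus strand) had the highest level of the members per length. It stood at 5490, 4367, 2452 and 5301 CPM in LLRCs and, in non-LRC libraries, at 4453, 2687, 3807 and 7063 CPM. The groups overlapped, with LLRCs higher in JV602 and JV621 and lower in JV624 and JV6314, as for Alb. The means were 4402 ± 1390 and 4502 ± 1856 CPM (SD, n = 4), and the log2 fold change was -0.03 with a 95% interval from -0.89 to 0.83 (edgeR's quasi-likelihood test, adjusted p = 1).

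**Figure D2:**
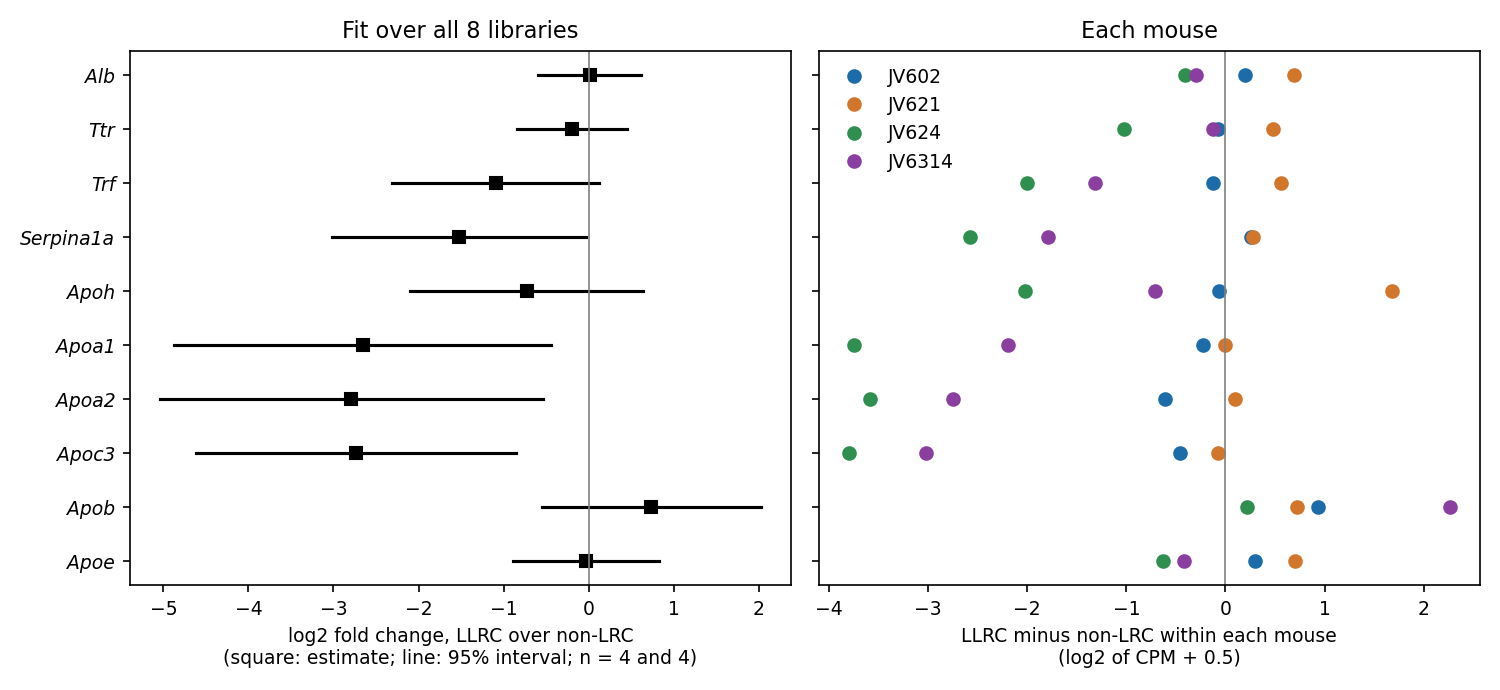
Left, log2 fold change of each transcript (LLRC over non-LRC, squares) with its 95% interval from edgeR's quasi-likelihood fit over 4 and 4 libraries; right, the LLRC minus non-LRC difference in each mouse on log2 of CPM plus 0.5. The intervals of Apoa1, Apoa2, Apoc3 and Serpina1a lie below 0, and on the right their JV624 and JV6314 points lie between -3.80 and -1.79 while their JV602 and JV621 points lie between -0.61 and 0.27.

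The makeup of the secreted transcripts also differed between libraries. The 10 members took 1.02%, 0.741%, 0.460% and 0.777% of all counts in the LLRC libraries and 0.741%, 0.386%, 1.31% and 1.31% in the non-LRC libraries. Alb and Apoe made up 85.4% to 91.1% of the member counts in LLRCs and 89.2% and 88.2% in the non-LRC libraries of JV602 and JV621, but 61.4% in that of JV624 and 81.7% in that of JV6314.

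Ratios of counts within a library, which do not depend on scaling between libraries, gave the same division. There were 5.08 to 7.97 counts of Alb for each count of Ttr over all 8 libraries, a 1.57-fold range. For each count of Apoa1 there were 49.7, 99.7, 30.6 and 39.3 counts of Alb in the LLRC libraries and 36.8, 61.1, 3.01 and 10.5 in the non-LRC libraries, a 33.1-fold range. Alb was thus least in excess where Apoa1 was highest, in the non-LRC libraries of JV624 and JV6314. Apoa1 kept a narrower ratio to its partners: 0.438 to 1.08 counts for each count of Apoa2, a 2.47-fold range, and 1.87 to 4.30 for each count of Apoc3, a 2.29-fold range. Apoe stood at 1.17 to 2.54 counts for each count of Alb, a 2.16-fold range, but at 10.8 to 44.1 for each count of Apoc1, a small apolipoprotein encoded in the same cluster, a 4.08-fold range.

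**Figure D3:**
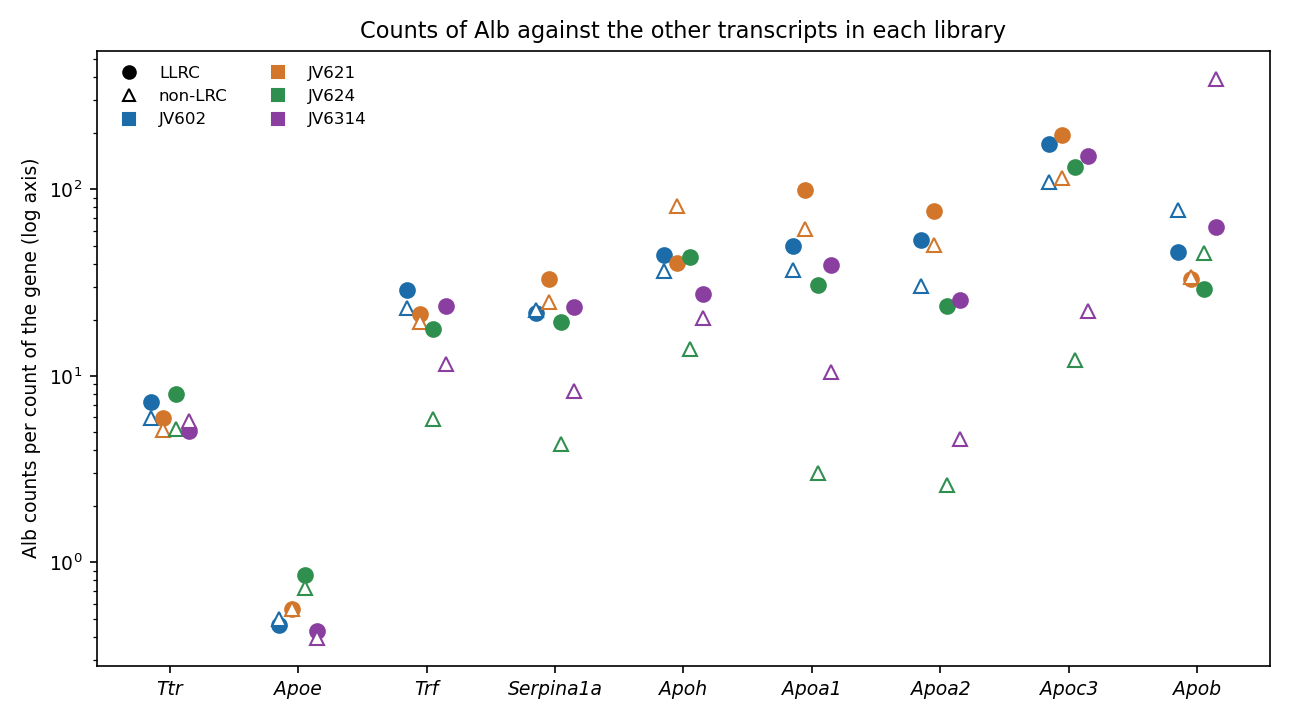
Counts of Alb for each count of the 9 other transcripts (log axis) in each library, with filled circles for LLRCs, open triangles for non-LRC libraries and a colour for each mouse. The points of Ttr and Apoe are close together, whereas for Apoa1 they run from 3.01 in the non-LRC library of JV624 to 99.7 in the LLRC library of JV621, and Apob has its own far point at 392 in the non-LRC library of JV6314.

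Per kilobase of exon, the scale on which genes can be ranked, Apoe came before Alb in both groups, at 2059 ± 650 and 998 ± 84.6 CPM per kilobase in LLRCs and 2106 ± 868 and 990.3 ± 258 in non-LRC libraries (SD, n = 4). In LLRCs, Ttr came next at 310 ± 67.7 CPM per kilobase and Apoa2 after it at 119.9 ± 54.4, and the ranges of Apoe, Alb, Ttr and Apoa2 did not overlap from each to the next. Serpina1a, Apoa1 and Apoh followed at 53.9, 40.8 and 39.0 CPM per kilobase, with ranges that overlapped from each to the next. The place of Serpina1a is uncertain, because 67.4% of the 50-base windows of its longest transcript also occur in transcripts of other genes. With the longest transcript as the length in place of all exon bases, Apoe stood at 3127 and 3198 CPM per kilobase in the groups and Apoh (52.3) came before Apoa1 (48.7) in LLRCs. Trf was left out of this order, because most of its exon bases are shared with Gm20425 and the length over which its reads were counted is not that of the gene. Apoc3 at 14.3 and Apob at 4.23 CPM per kilobase came last and were separate from their neighbours. In non-LRC libraries Apoa2 stood before Ttr, at 829 ± 918 CPM per kilobase, and of the neighbours in that order only Apoe against Alb and Apoh (64.8) against Apob (2.53) had ranges that did not overlap.

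Other genes of the same systems were set beside the members. Of 30 other proteins that the liver secretes into plasma, 29 were tested, 4 of them were lower in LLRCs at an unadjusted p below 0.05 and 0 higher, and their median log2 fold change was -1.22, beside -0.01 for all genes tested. Their medians within the mice were 0.24, 0.34, -1.998 and -0.96. Serpinc1, the thrombin inhibitor antithrombin, was likewise highest in the non-LRC libraries of JV624 and JV6314: it stood at 24.3, 14.7, 27.5 and 26.5 CPM in LLRCs and, in non-LRC libraries, 19.4, 25.7, 256.5 and 173 CPM (edgeR's quasi-likelihood test, adjusted p = 0.719). The genes of this list with the most counts were not. Ceruloplasmin (Cp), a copper-carrying oxidase, had means of 4071 ± 572 CPM in LLRCs and, in non-LRC libraries, 3358 ± 1643 CPM, and Ambp, the precursor of alpha-1-microglobulin, 921 ± 138 and 779 ± 156 CPM (SD, n = 4).

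Of 13 other apolipoproteins, 10 were tested, with 1 lower in LLRCs at an unadjusted p below 0.05, 0 higher and a median log2 fold change of -1.29. The non-LRC library of JV624 carried much of that median, which was -0.265 without it, -0.28 with voom weights and -0.34 with the mouse as a block, and within the mice the medians were 0.29, 1.16, -2.51 and -0.66. Clu had the most counts of this list, at 14540 ± 915 CPM in LLRCs and, in non-LRC libraries, 11100 ± 2152 CPM (SD, n = 4), and it was higher in LLRCs in each mouse, by 0.29, 0.82, 0.47 and 0.06 on the log2 scale, though with library size as the only scaling it was lower in JV624 and JV6314 (-0.04 and -0.20). Apoc1 stood at 154 ± 55.2 and 218 ± 130 CPM, and Apoc4, its small neighbour, at 9.10 ± 3.83 and 46.1 ± 49.9 CPM with a log2 fold change of -2.34 (edgeR's quasi-likelihood test, adjusted p = 0.951). As with Apoc3, the Apoc4 difference sat in JV624 and JV6314, at -2.96 and -2.53 against -0.14 and 0.82 in JV602 and JV621.

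All 4 paralogs of Serpina1a were tested, with 3 lower in LLRCs at an unadjusted p below 0.05 and a median log2 fold change of -1.87. Stretches of their transcripts also occur in Serpina1a, so their counts may not be a separate measurement. Serpina1e stood at 65.7, 69.5, 164 and 89.8 CPM in LLRCs and, in non-LRC libraries, 62.6, 107, 1702 and 279 CPM, so that the paralogs together with Serpina1a were highest in the non-LRC library of JV624. Serpina1c had a smaller log2 fold change of -1.11 (edgeR's quasi-likelihood test, adjusted p = 1).

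Genes that load, export and take up these proteins had medians nearer 0. The 10 genes of lipoprotein assembly had a median log2 fold change of 0.02, with 0 at an unadjusted p below 0.05. Among them P4hb, a folding enzyme and subunit of the triglyceride transfer protein, had a log2 fold change of -0.10, Sar1b, which buds large carriers from the endoplasmic reticulum, 0.34, and Mia3, which fits bulky cargo into them, 0.54. Of 18 receptors and uptake genes, 15 were tested, 2 were lower in LLRCs at an unadjusted p below 0.05, 0 were higher, and the median log2 fold change was -0.55. Those 2 were Abca1, which loads lipid onto Apoa1 (-1.82, adjusted p = 0.915 in edgeR's quasi-likelihood test), and Abcg1, a cholesterol exporter (-1.77, adjusted p = 0.863 in the same test). Abca1 did not follow Apoa1 across mice, since its highest level, 449 CPM, was in the non-LRC library of JV621, where Apoa1 was at its lowest among non-LRC libraries. Tfrc, the receptor for transferrin, had a log2 fold change of -0.02 with a 95% interval from -1.84 to 1.79.

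The 14 transcription factors known to act on these genes had a median log2 fold change of -0.41, with 0 lower and 1 higher in LLRCs at an unadjusted p below 0.05. The median was above 0 with voom weights (0.135) and without the non-LRC library of JV624 (0.08). The gene past that p was the forkhead factor Foxa1, at 66.1 ± 37.5 CPM in LLRCs and, in non-LRC libraries, 19.6 ± 10.9 CPM (SD, n = 4; edgeR's quasi-likelihood test, adjusted p = 0.778), higher in LLRCs in all 4 mice. Prox1, a homeobox factor of the early liver, had a log2 fold change of 0.32.

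Hepatocyte markers that stay inside the cell were listed to see whether they went with the members. Of 20, 18 were tested, 11 were lower in LLRCs at an unadjusted p below 0.05 and 0 higher, and the median log2 fold change was -1.82. Their medians within the mice were -0.43, -0.43, -2.89 and -1.82, and 13 of the 18 were lower in LLRCs by more than 1 on the log2 scale in both JV624 and JV6314. Their summed level was 3525 to 5221 CPM in LLRCs and, in non-LRC libraries, 4610, 6129, 8536 and 5884 CPM. Tdo2, which breaks down tryptophan, had means of 74.9 ± 32.3 and 267 ± 163 CPM (SD, n = 4), and the LLRC minus non-LRC difference of Tdo2 was -1.93, -1.34, -2.07 and -1.69 in the 4 mice. The part of hepatocytes in the member values was not tested.

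**Figure D4:**
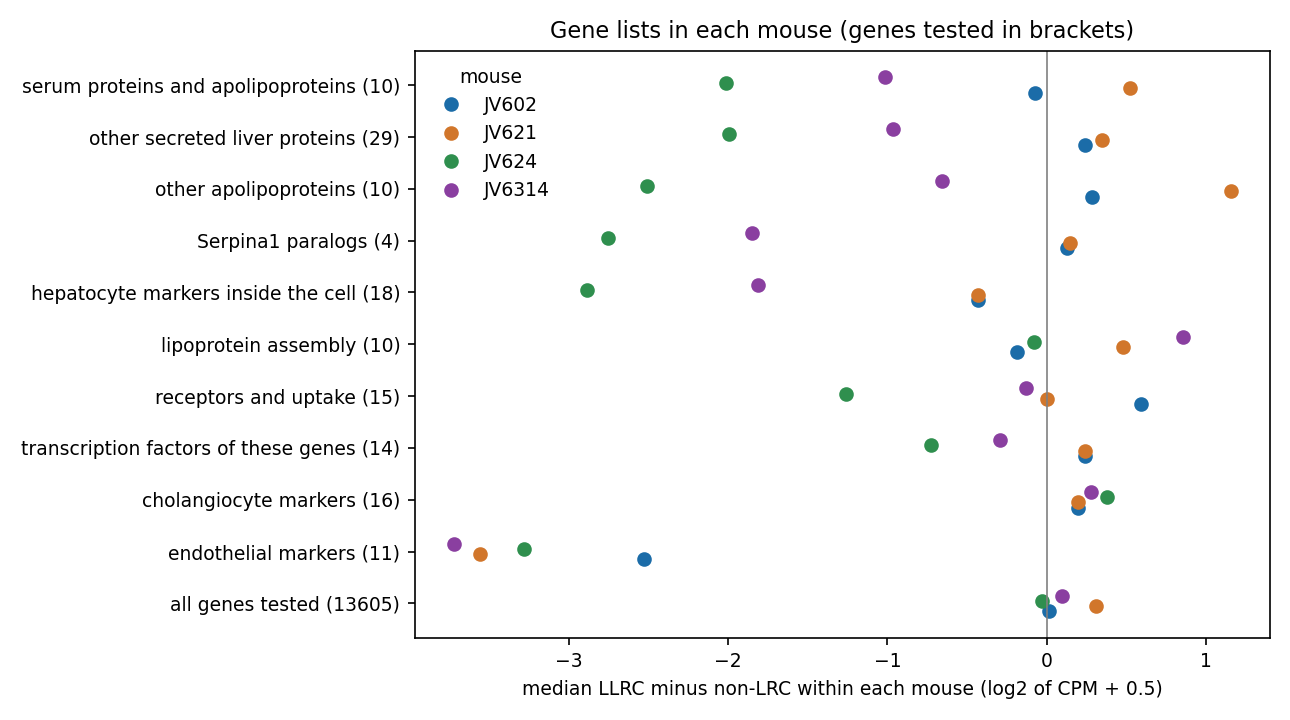
Median LLRC minus non-LRC difference within each mouse, on log2 of CPM plus 0.5, for the 10 transcripts and for the other gene lists, with the number of genes tested in brackets. For the members, the other secreted proteins, the Serpina1 paralogs and the hepatocyte markers, JV624 and JV6314 lie between -2.89 and -0.96, below JV602 and JV621, whereas endothelial markers lie between -3.72 and -2.53 in all 4 mice.

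Markers of other cell types were compared in the same way. Of 12 endothelial markers, 11 passed the filter, and each of these 11 was lower in LLRCs at an unadjusted p below 0.05, with a median log2 fold change of -3.69 and a summed level of 30.5 to 58.8 CPM in LLRCs and 192 to 792 CPM in non-LRC libraries. The direction was the same in every mouse, with medians of -2.53, -3.56, -3.28 and -3.72, and Kdr, a receptor of the vascular lining, stood at -3.78 on the log2 scale (edgeR's quasi-likelihood test, adjusted p = 0.0809). Of 11 stellate cell and fibroblast markers, 7 were tested, with 3 lower and 0 higher at an unadjusted p below 0.05 and a median of -1.91. Their medians within the mice were -0.63, -0.43, -2.62 and -2.10, lower in JV624 and JV6314, though their summed level of 2475 to 9938 CPM in LLRCs overlapped that of 3545 to 9298 CPM in non-LRC libraries. Most of that sum was Rgs5, a regulator of G protein signalling in pericytes, which stood at 2196, 5019, 8385 and 9242 CPM in LLRCs and, in non-LRC libraries, 2816, 3972, 3159 and 6761 CPM. It was higher in the LLRCs of JV621, JV624 and JV6314, the reverse of the list's median. Dcn, a matrix proteoglycan, stood at 66.2, 360.3, 552.5 and 385.8 CPM in LLRCs and, in non-LRC libraries, 498.6, 485.9, 2311 and 1815 CPM, lower in LLRCs in all 4 mice. Of the 16 cholangiocyte markers, 0 were lower and 1 was higher in LLRCs at an unadjusted p below 0.05, with a median log2 fold change of 0.19. That marker was Cftr, the chloride channel of bile ducts, at 149 ± 55.5 and 55.0 ± 30.0 CPM (SD, n = 4; edgeR's quasi-likelihood test, adjusted p = 0.688), and it was lowest in the non-LRC libraries of JV624 and JV6314, at 21.3 and 40.8 CPM. Spp1 likewise stood lowest there, at 64250 and 102200 CPM, against 111900 to 218600 CPM in the other 6 libraries. Krt19, a keratin of bile ducts, was highest in those same 2 libraries, at 172.4 and 145.6 CPM. Krt7, another, was mixed: it was highest of all 8 in the non-LRC library of JV624, at 79.4 CPM, and next to lowest in that of JV6314, at 38.7 CPM.

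Of 12 leukocyte and Kupffer cell markers, 2 were tested, with 0 lower in LLRCs at an unadjusted p below 0.05 and 1, Ptprc, which encodes CD45, higher (adjusted p = 0.957 in edgeR's quasi-likelihood test). The list summed to 12.2 to 31.1 CPM in LLRCs and 16.7 to 49.7 CPM in non-LRC libraries. Adgre1, Clec4f, Marco, C1qa, C1qb and C1qc, all markers of Kupffer cells, were at 0 counts in all LLRC libraries and, but for 4 counts of C1qb in JV602, in the non-LRC libraries of JV602 and JV621. In the non-LRC libraries of JV624 and JV6314, Adgre1 had 39 and 8 counts and Clec4f 12 and 10. The few counts of Adgre1 and Clec4f thus fell where the members were high, but not every marker of the list did so. Csf1r, the other marker tested, was highest in the LLRC library of JV602, at 29.4 CPM. It stood at 21.15 and 13.2 CPM in the non-LRC libraries of JV624 and JV6314. Cd68 had 13 and 0 counts in those non-LRC libraries and 9 in the LLRC library of JV602. Of 10 pancreatic acinar markers, 1 was tested, and they summed to 2013 CPM in the non-LRC library of JV6314 and to 2.13 to 23.5 CPM in the others. Of 6 erythroid markers, 1 was tested, and they summed to 455 CPM in the non-LRC library of JV624 and 112 CPM in its LLRC library, with 16.0 CPM or less elsewhere. The highest acinar sum and the highest erythroid sum thus each fell in a non-LRC library with high Apoa1, Apoa2 and Apoc3, and the part of all these cells in the member values was not tested.

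The non-LRC library of JV624 alone set much of these sizes. Without it the median of the members was -0.31, Apoa1 stood at -1.21, Apoa2 at -1.88, Apoc3 at -1.87, Serpina1a at -0.74, Trf at -0.41 and Apoh at -0.205, and the median was -0.49 for the other secreted proteins, -0.81 for the Serpina1 paralogs, -0.04 for the receptors and uptake genes and -1.015 for the hepatocyte markers. With the non-LRC libraries of JV624 and JV6314 both left out, a comparison chosen after seeing the data that sets all 4 LLRC libraries against the non-LRC libraries of JV602 and JV621 and so is not paired, the log2 fold change was above 0 for 7 of the 8 members that had been below 0. Trf went to 0.26, Apoa1 to 0.25, Apoa2 to 0.33, Apoh to 0.66, Serpina1a to 0.32, Ttr to 0.15 and Apoe to 0.30, and Apoc3 stayed below 0 at -0.20. Within the mice JV602 and JV621, which keep their pairs, Apoa1 (-0.23 and -0.01) and Apoc3 (-0.46 and -0.08) were lower in LLRCs in both, Apoa2 was at -0.61 and 0.10, and of those 7 members Serpina1a and Apoe were higher in both. In the unpaired comparison the median of the 10 was 0.31, beside 0.12 for all genes tested, and 0 members were called. The median was -0.61 for the stellate cell and fibroblast markers and 0.50 for the other apolipoproteins. It was 0.48 for the other secreted proteins, 0.31 for the Serpina1 paralogs and -0.21 for the hepatocyte markers. With the mouse as a block, which the shared animal allows, the log2 fold change was -1.51 for Apoa1, -1.72 for Apoa2, -1.87 for Apoc3 and -0.95 for Serpina1a, beside a median of 0.14 for all genes, and the adjusted p was 1 for all 10 members.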

How the data were processed

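RNA was measured in 8 libraries, an LLRC and a non-LRC library from each of 4 mice. The authors had the reads mapped as a service (the aligner is not given in the sources used here), counted them per gene with HTSeq in union mode, on exons and without strand, on GRCm38.p4 with the Ensembl annotation, and deposited raw counts. The authors' own comparison of the groups (log2 fold changes and p-values, from edgeR 3.2.4) was also deposited as log2 and p-value columns and was not used here. Symbols and positions came from GENCODE M21 for 46091 of 46603 genes. The filterByExpr function of edgeR 4.0.16 (R 4.3.3) kept 13605 genes. Libraries were scaled by TMM and the groups compared with the quasi-likelihood test of edgeR, in the older form of its dispersion, with no other term than the group and with Benjamini-Hochberg adjustment at 0.05. Total counts of 4670132 to 9851819 put 3 counts at 0.291 to 0.626 CPM, which covers counting error only. Within-mouse differences used log2 of CPM plus 0.5. DESeq2 1.42.0, limma 3.58.1, other scalings, no filter, thinned counts, left-out libraries and the mouse as a block were alternatives. The scripts were tested on simulated data.

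The mouse of each library comes from the sample titles, so the block pairs libraries of the same animal. Across genes, the deviations from the group means correlated between the libraries of 1 mouse at 0.096, 0.074, 0.0033 and 0.17 in JV602, JV621, JV624 and JV6314. The members and the gene lists were chosen with earlier results of these data known. Genes named from each list were drawn from the 2 with the highest mean CPM and, as none passed the threshold, the 1 with the smallest unadjusted p, and 5 genes were named for a profile like that of the members. Kupffer markers with few or 0 counts, Serpina1b, Serpina1d, Gm8893, Gm20425 and Prkca are named for their counts or overlap, and Krt19 and Krt7 were chosen after their values were seen. Some genes that the rule would name are not reported here. Promoter sequences came from RefSeq for GRCm38.p6.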

Additional observations from a re-analysis of the deposited data

How the results depend on the processing

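Of the results, the number of genes called depended most on the test. The quasi-likelihood test called 0 of 13605 genes, with 702 at an unadjusted p below 0.05, whereas DESeq2 called 221 (172 lower and 49 higher in LLRCs), edgeR's exact test 159 (127 and 32), the newer form of the quasi-likelihood dispersion 73 (61 and 12), and the fit without a filter on low counts 11 (10 and 1). limma with voom weights called 0, with 891 at an unadjusted p below 0.05. Leaving out a library or a mouse called 0 to 6 genes, the 6 without the non-LRC library of JV602. The number of members called was 1 with DESeq2 (Apoc3) and 0 under every other alternative, 0 in each leave-out. The replicate block, with the mouse as a term, called 0 genes, with 569 at an unadjusted p below 0.05, and changed no call.

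The median log2 fold change of the members was -1.24 to -0.28 with a library or a mouse left out, and 0.31 with the non-LRC libraries of JV624 and JV6314 left out, an unpaired alternative chosen after seeing the data, in which the LLRC libraries of those mice have no partner. In that setting Ttr (0.15), Trf (0.26), Apoa1 (0.25), Apoa2 (0.33), Apoh (0.66), Serpina1a (0.32) and Apoe (0.30) turned above 0. Apoa1 ran from -3.03 to -1.21 with a library or a mouse left out, Apoa2 from -3.17 to -1.88, Apoc3 from -3.1 to -1.87, Serpina1a from -1.92 to -0.74, Trf from -1.42 to -0.41, Apoh from -1.07 to -0.10 and Apob from 0.41 to 1.13. Alb turned below 0 with DESeq2 (-0.0167), with DESeq2 size factors (-0.0167), with library size only (-0.10) and with thinned counts (-0.0086), and ran from -0.16 to 0.16 in the leave-outs. Apoe turned above 0 without a filter (0.0119) and ran from -0.20 to 0.28, and Ttr ran from -0.39 to 0.0688. The median of all genes moved by more than 0.1 with voom (0.16), with the block (0.14) and with those non-LRC libraries left out (0.12). The cause of these shifts was not tested. The depth gave every member 36 counts or more in each library, above the floor of 3 counts.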

Other observations

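Genes outside the members were ranked by how closely their centred log2 CPM over the 8 libraries followed the mean centred profile of the 10 members, as a root-mean-square difference. That mean profile stood at -0.29, -0.47, -0.29 and -0.19 in the LLRC libraries, in the order of mice above, and at -0.30, -0.98, 1.67 and 0.85 in the non-LRC libraries. The closest genes were Gstp-ps (0.089), Gstp1 (0.121), Scp2-ps2 (0.126), Gstp2 (0.139) and Gpx1 (0.170). Gstp1 and Gstp2 are glutathione transferases and Gpx1 is a glutathione peroxidase that removes hydrogen peroxide. Gstp-ps and Scp2-ps2 are annotated as copies of other genes, with which they can share reads. Gpx1 had a log2 fold change of -1.04 (edgeR's quasi-likelihood test, unadjusted p = 0.0846) and Gstp1 of -0.90 (unadjusted p = 0.113 in the same test).

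Among the members themselves, Trf (0.206), Serpina1a (0.327) and Apoh (0.379) lay closest to the mean profile, and Apob (1.44) and Apoa2 (1.04) farthest. Apoa2 was farthest on the side of larger steps, with 1072 CPM in the non-LRC library of JV624 against 29.9 CPM in that of JV621, and Apob on the other side, with 61.1 and 44.5 CPM in the same libraries.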
